A study of Mus musculus with 20 samples.

Results

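The 34 genes described here encode the steps from glucose uptake to lactate export, and were taken by symbol from 24062 genes listed in count tables of mouse lung RNA. They cover 2 glucose transporters, 3 hexokinases, glucose phosphate isomerase, 3 phosphofructokinase subunits, 4 PFKFB enzymes, 2 aldolases, 5 genes from triose phosphate isomerase to the mutases, 3 enolases, pyruvate kinase, 2 lactate dehydrogenase subunits, 4 pyruvate dehydrogenase kinases, 2 subunits of pyruvate dehydrogenase and 2 monocarboxylate transporters. Of these, 33 passed the filter on low counts and were tested; Eno1 did not.

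Glycolysis splits glucose into pyruvate and yields ATP without oxygen. Phosphofructokinase is its main control point, and the PFKFB enzymes make and remove fructose 2,6-bisphosphate, the strongest activator of that step. Lactate dehydrogenase turns pyruvate into lactate when oxygen is scarce, pyruvate dehydrogenase kinases close the route of pyruvate into mitochondria, and hypoxia-inducible factors are known to switch on many genes of this path in low oxygen.

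The mice were C57/129, wild type (Arg2+/+) or knockout (Arg2-/-) for arginase 2, a mitochondrial enzyme that splits arginine into ornithine and urea. They entered exposure at 8 to 10 weeks of age, males and females alike, and stayed 28 days in 21% oxygen (room air) or 10% oxygen (hypoxia), a standard model of pulmonary hypertension. Each of the 4 groups held 4 samples, and whole lung RNA depleted of ribosomal RNA was sequenced. Nothing in the labels names the deleted exons or ties samples to litters, so each p-value reflects only how much these samples vary, which may be technical in part. In bulk lung RNA, fewer cells of a type and less RNA per cell cannot be told apart.

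Reads in genes per sample ran from 9531270 to 63331530, which was between 25.4% and 64.2% of the reads counted either in a gene or outside all genes. The summed level of 12 lung epithelial and endothelial markers lay between 36040 and 45850 CPM (counts scaled to library size) in the 16 samples. Arg2 itself stood at 7.30 to 11.8 CPM in wild type room air and 6.33 to 11.7 CPM in wild type hypoxia, and at 4.58 to 7.78 and 3.22 to 5.37 CPM in the knockout groups. The highest of these knockout values, in knockout room air 4, lay inside the wild type range; counts over the whole gene cannot check a deletion whose place is not given. Some samples held genes of other tissues: 10 skeletal muscle markers summed to 1649 CPM in wild type room air 1 against 8.77 to 60.1 CPM elsewhere, 10 pancreas markers reached 2122, 163, 20.7 and 4.89 CPM in knockout hypoxia 1 to 4 against 2.38 to 4.37 CPM in the other 12 samples, 10 heart markers reached 1108 CPM in knockout room air 3, and knockout room air 3 and 4 held 88.5 and 71.96 CPM of thymocyte markers. Neutrophil markers were high in wild type hypoxia 2 and knockout room air 4, at 1292 and 1311 CPM, against 320.5 to 665.7 CPM in the other 14 samples.

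Differences were tested across all 15766 genes that passed the filter, and a gene was called where the adjusted p of edgeR's quasi-likelihood test lay under 0.05. Hypoxia raised 2 members and lowered none in wild type, which is 6.06% of the 33 tested, where 4.98% of all genes tested were called (2.67% higher, 2.31% lower). In knockout 5 rose and 4 fell, 27.3% of the members beside 17.0% of all genes (7.93% higher, 9.10% lower). Without knockout room air 4, the sample whose Arg2 level was in the wild type range, 7 of these 9 were called, beside 14.5% of all genes. Knockout against wild type gave no called member in room air, beside 0.0761% of all genes. There 7 members and 3408 of all genes had an unadjusted p under 0.05, and DESeq2 called 2 members and 6.93% of all genes. In hypoxia the same comparison gave 2 members higher and 8 lower, 30.3% of the members beside 23.0% of all genes (11.0% higher, 12.1% lower). Without the 3 samples with the fewest reads in genes, wild type room air 3, wild type hypoxia 1 and knockout hypoxia 3, the calls of Slc2a1, Hk1, Pfkfb4, Bpgm, Pdk2 and Slc16a3 in that comparison were lost (adjusted p from 0.0565 for Hk1 to 0.219 for Slc2a1). The share of all genes called in it then fell to 14.9%. The difference between the hypoxia effects of the genotypes was called for no member, beside 0.501% of all genes. For it 8 members and 2225 of all genes had an unadjusted p under 0.05, and DESeq2 called 3 members and 3.01% of all genes. The members' median log2 fold change was 0.04 in wild type hypoxia, -0.03 in knockout hypoxia, -0.07 for knockout in room air and -0.14 for knockout in hypoxia, beside medians of -0.01, 0.00, -0.02 and -0.01 over all genes. Comparisons share samples: the knockout hypoxia group enters both the second and the fourth.

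**Figure D1:**
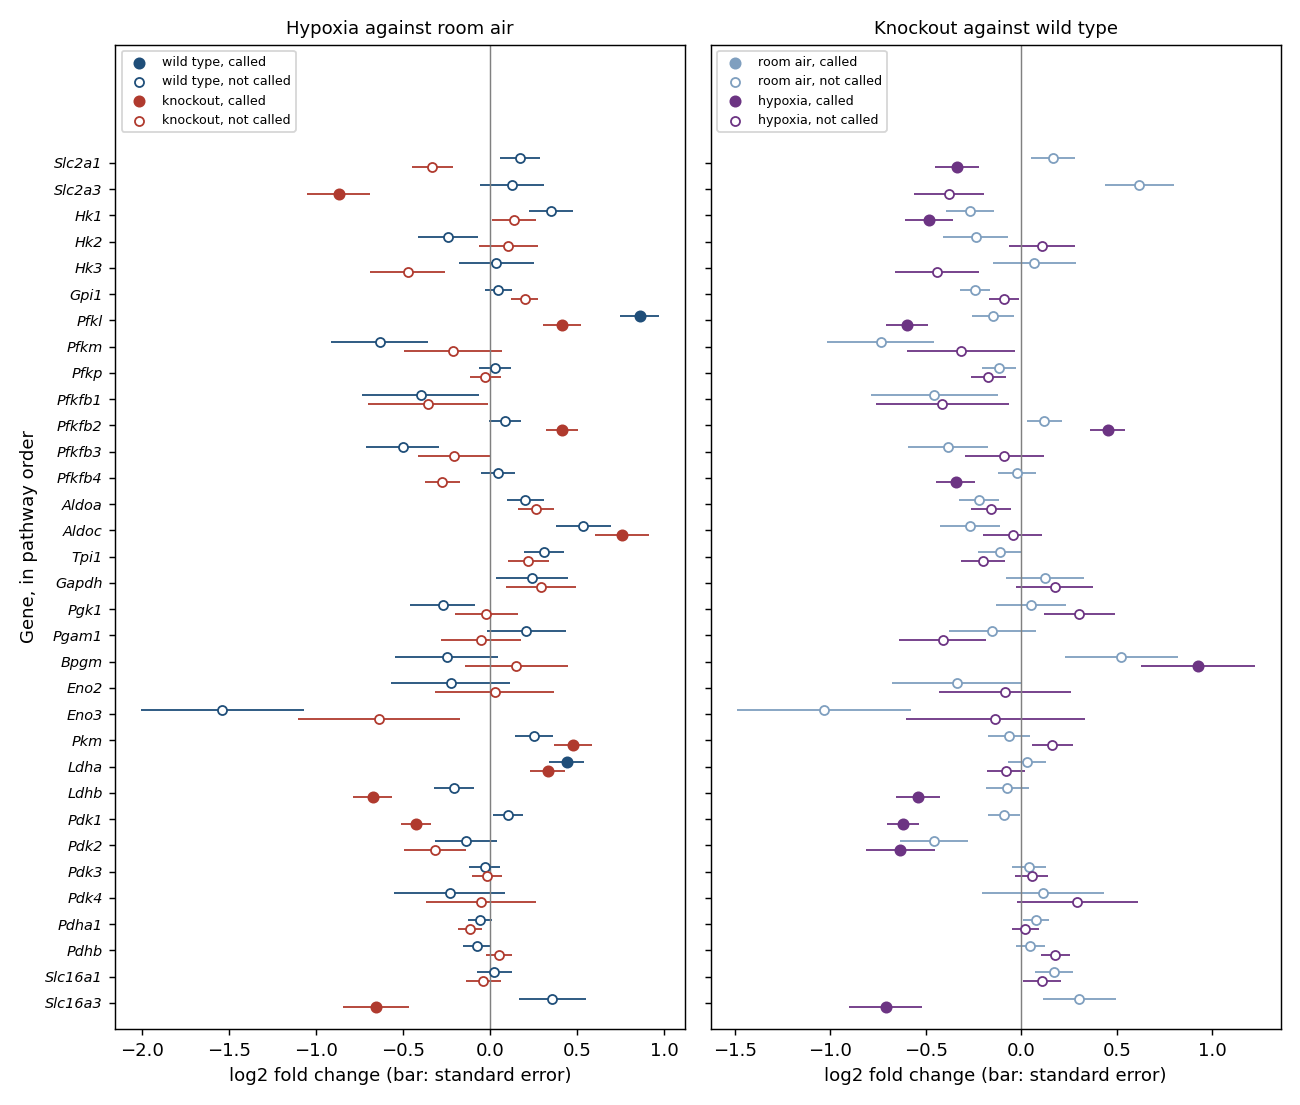
The log2 fold change of each tested member, with its standard error, for hypoxia against room air in each genotype (left) and knockout against wild type at each oxygen level (right); filled points were called. On the left, Pfkl and Ldha are filled in both genotypes, and on the right no room air point is filled.

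Glucose enters through the transporters Slc2a1 (GLUT1, found in most cells) and Slc2a3 (GLUT3, of high affinity). Slc2a3 stood at 26.4, 30.3, 25.9 and 42.5 CPM in knockout room air and at 18.3, 17.1, 19.4 and 13.6 CPM in knockout hypoxia. Those groups did not overlap, and the gene fell by 0.87 ± 0.18 on the log2 scale (adjusted p = 0.00272). In wild type it read 20.3, 17.9, 20.8 and 22.5 CPM in room air and 19.6, 30.9, 16.3 and 21.8 CPM in hypoxia, groups that overlap, with a log2 fold change of 0.13 ± 0.18. The difference between these effects was -0.998 ± 0.258 (adjusted p = 0.0848) and was not called. The knockout room air level exceeded that of wild type by 0.62 ± 0.18 (adjusted p = 0.0792), which was called only by DESeq2 (0.0218) and without wild type hypoxia 2 (0.049). The 2 highest Slc2a3 values, in knockout room air 4 and wild type hypoxia 2, sit in the 2 samples with the highest neutrophil markers; the part of these cells in the result was not tested. The call was lost, at -0.79 and an adjusted p of 0.0718, when knockout room air 3 and 4 and knockout hypoxia 1 and 2, the 4 with the most thymocyte or pancreas genes, were left out, which leaves 2 samples in each knockout group.

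Slc2a1 was the steadier transporter. It read 23.1, 25.95, 25.3 and 20.6 CPM in wild type room air and 28.6, 28.8, 22.9 and 26.3 CPM in wild type hypoxia. Knockout samples gave 24.6, 25.4, 26.99 and 29.2 CPM in room air and 26.2, 20.7, 18.3 and 18.97 CPM in hypoxia. Of the knockout hypoxia samples, 2 lay below all others and 1 inside the wild type hypoxia range. The knockout change under hypoxia, -0.33 ± 0.12, was not called (adjusted p = 0.056) but was by DESeq2 (0.0386) and limma voom (0.0472), with upper quartile scaling (0.0365), with only the compared groups fitted (0.0399) and without knockout hypoxia 1 (-0.46, adjusted p = 0.00816), alone or with knockout hypoxia 2 (0.0162). Under hypoxia the knockout level was lower than the wild type by -0.34 (adjusted p = 0.0421), a call lost in 13 of 30 alternatives. Among them were the removal of wild type room air 1 (adjusted p = 0.0504), wild type hypoxia 1, 2 or 4 (0.104, 0.104 and 0.0742), knockout room air 2 or 3 (0.052 and 0.0529) and knockout hypoxia 2, 3 or 4 (0.0848, 0.127 and 0.131).

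Hexokinases phosphorylate glucose and trap it in the cell; Hk1 is the broadly expressed form, Hk2 is known as inducible and Hk3 is known from white blood cells. Hk1 read 85.4, 92.2, 69.1 and 76.7 CPM in wild type room air and 103, 99.1, 94.1 and 117 CPM in wild type hypoxia. In knockout the values were 67.8, 78.7, 63.5 and 59.7 CPM in room air and 89.5, 83.0, 62.2 and 61.2 CPM in hypoxia. All 4 wild type hypoxia samples lay above all knockout hypoxia samples, a log2 difference of -0.48 ± 0.13 (adjusted p = 0.0117). The wild type increase of 0.35 ± 0.13 was not called (adjusted p = 0.134) except with the GC trend removed (0.37, adjusted p = 0.0426), although the wild type groups did not overlap. An antisense gene, Hk1os, overlaps Hk1 and is listed in the count tables. With an unstated strand setting, reads from shared stretches may have gone to either gene or been left out. Hk2 means lay between 31.1 and 36.9 CPM and Hk3 means between 6.09 and 8.57 CPM, with no call in either gene. Hk3 was highest in knockout room air 4 and wild type hypoxia 2 (12.7 and 10.99 CPM), the samples with the most neutrophil markers. Glucose phosphate isomerase, Gpi1, ranged over group means of 86.3 to 106 CPM and was not called; in room air its knockout level differed from wild type by -0.24 ± 0.08 (adjusted p = 0.0966), a difference that was called without wild type room air 3 (-0.27, adjusted p = 0.0325), when the number of all genes called rose from 12 to 2198.

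Pfkl, the liver-type subunit of phosphofructokinase, lies on chromosome 10 from 77986947 to 78010083 (GRCm38, minus strand) and gave the larger of the 2 rises called in wild type. It stood at 57.0, 62.4, 57.2 and 65.8 CPM in wild type room air and, after hypoxia, at 120.8, 133.8, 90.96 and 95.01 CPM. The knockout read 54.3, 59.8, 53.1 and 51.8 CPM in room air and 81.9, 73.5, 64.4 and 71.1 CPM in hypoxia. In each genotype every hypoxia sample lay above every room air sample, and all wild type hypoxia samples lay above all knockout ones. Pfkl rose 1.82-fold in wild type (log2 0.86 ± 0.11, adjusted p = 6.62e-05) and 1.33-fold in knockout (0.41 ± 0.11, adjusted p = 0.0134), and under hypoxia the knockout was lower by -0.60 ± 0.11 (adjusted p = 0.00148). The difference between the rises was -0.45 ± 0.15 and was not called (adjusted p = 0.186). Its knockout rise was lost without the 4 knockout samples named above (0.25, adjusted p = 0.416), and without either pair of them (0.35 and 0.31, adjusted p = 0.139 and 0.153).

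The other subunits did not follow. Pfkp, the platelet type, had group means of 79.9, 81.5, 73.8 and 72.4 CPM in wild type room air, wild type hypoxia, knockout room air and knockout hypoxia. Pfkm, the muscle type, reached 80.1 CPM in the sample with skeletal muscle genes, wild type room air 1, and lay between 18 and 31.0 CPM in the other 15. Without that sample its wild type hypoxia change went from -0.64 ± 0.28 to -0.09 (adjusted p = 0.807). Neither was called in any comparison. Per kilobase of exon, Pfkl made up 34.1% ± 6.18 (SD, n = 4) of the 3 subunits' reads in wild type room air and 51.2% ± 2.20 in wild type hypoxia, and 36.5% ± 2.55 and 44.7% ± 3.06 in knockout. The room air and hypoxia samples did not overlap in either genotype, and in room air the mean share of Pfkp was the highest. In wild type room air 1, the sample with skeletal muscle genes, Pfkm had its highest share, 43.72%, and Pfkl its lowest. That sample lowered the wild type room air mean of Pfkl and so enlarged the wild type shift. The highest Pfkl share in wild type room air was 38.53%, and the lowest in wild type hypoxia was 48.75%.

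Pfkfb2, the PFKFB form known from heart, had the highest level of its family in every group. It read 169.8, 158.1, 205.0 and 175.1 CPM in wild type room air, 179.9, 173.4, 212.3 and 183.7 CPM in wild type hypoxia and 174.6, 196.8, 201.4 and 196.0 CPM in knockout room air. Knockout hypoxia stood apart at 246.1, 229.5, 266.1 and 282.5 CPM, with all 4 samples above the other 12. Hypoxia raised it in knockout by 0.41 ± 0.09 (adjusted p = 0.00396), and under hypoxia knockout exceeded wild type by 0.45 ± 0.09 (adjusted p = 0.0029); both calls held in all 30 alternatives run. In wild type the change was 0.08 ± 0.09, and the difference between the hypoxia effects, 0.33 ± 0.13, was not called (adjusted p = 0.253). Yod1, on the opposite strand, overlaps this gene. Without the strand setting, reads from shared stretches may have gone to either gene or been left out. Other listed genes on the opposite strand overlap Hk3, Pfkm, Pfkp, Pfkfb1, Aldoa, Tpi1, Gapdh and Pdha1.

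Pfkfb4 moved the other way. It stood at 61.9, 79.4, 70.2 and 74.2 CPM in wild type room air, 74.5, 82.4, 69.0 and 68.9 CPM in wild type hypoxia and 59.5, 67.7, 68.6 and 85.5 CPM in knockout room air. In knockout hypoxia the 4 values were close together, at 57.6, 58.3, 59.0 and 57.3 CPM, below all 12 others. Its level there was lower than in wild type hypoxia by -0.34 ± 0.10 (adjusted p = 0.0204), a call lost without wild type hypoxia 2 (adjusted p = 0.0636) or knockout hypoxia 4 (0.0555) and after removal of the GC trend (-0.21, adjusted p = 0.144). Hypoxia in knockout changed it by -0.28 ± 0.10 (adjusted p = 0.067), which was called without knockout room air 1 (-0.35, adjusted p = 0.0276). Pfkfb3, the form known as strongly inducible, had means of 116 ± 21.8, 81.6 ± 29.0, 88.6 ± 16.9 and 76.9 ± 11.8 CPM (SD, n = 4) in the group order used above and was not called; its wild type decrease of -0.50 ± 0.21 (adjusted p = 0.233) was called only without wild type hypoxia 4 (-0.77, adjusted p = 0.0105). Pfkfb1 lay between 0.691 and 2.71 CPM; its difference between the genotypes under hypoxia, -0.41 ± 0.35 (adjusted p = 0.414), was called without the 3 samples with the fewest reads in genes (-0.95, adjusted p = 0.0386).

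**Figure D2:**
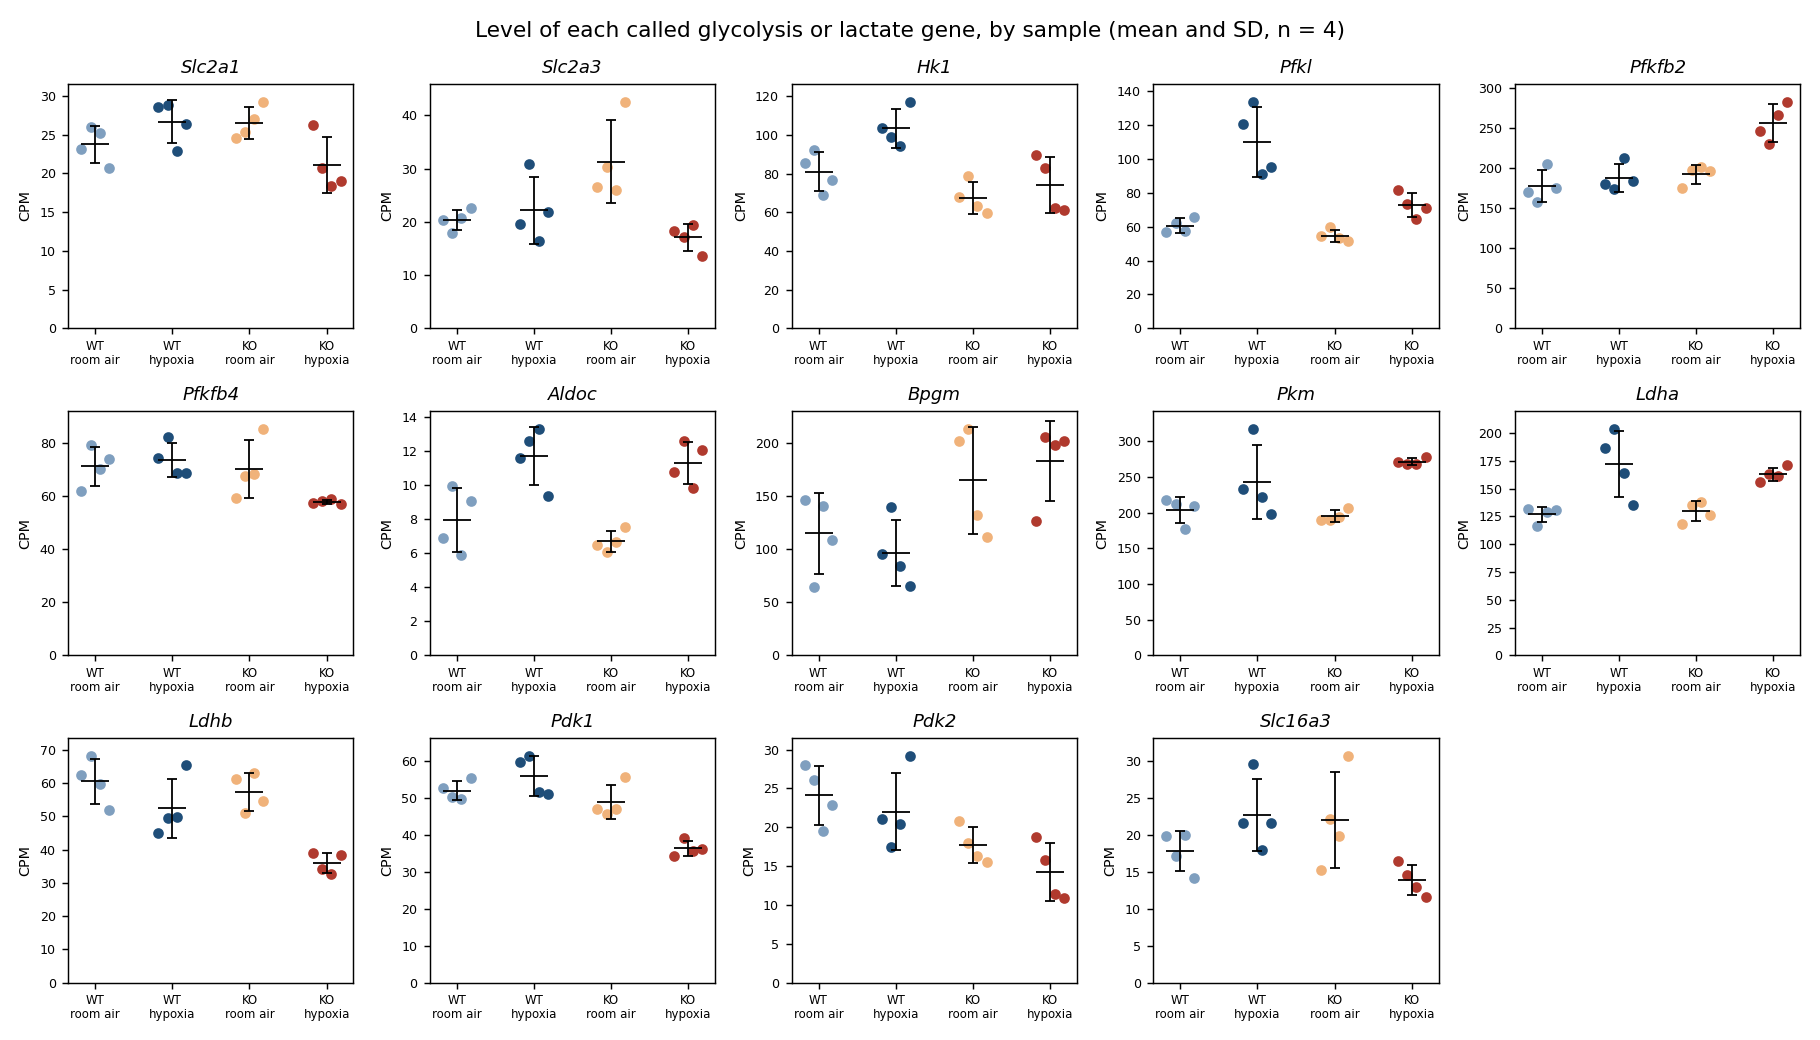
CPM of the 14 members called in at least 1 comparison, 1 point per sample, with the mean and SD of the 4 samples in each group; each vertical axis starts at 0. Pfkl is highest in wild type hypoxia, while Pfkfb2 is highest and Pfkfb4, Pdk1 and Ldhb are lowest in knockout hypoxia.

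Aldolases cut fructose bisphosphate into triose phosphates. Aldoa had the highest level per kilobase of all members, at 199 CPM per kilobase of exon on average over the 16 samples, and group means of 360, 414, 309 and 371 CPM. Its wild type room air mean includes 453.7 CPM in sample 1, where muscle genes were present, against 325.2 to 335.1 CPM in the other 3 samples. Without that sample hypoxia raised Aldoa in wild type by 0.34 (adjusted p = 0.0409) and in knockout by 0.26 (adjusted p = 0.0343); with it, the values were 0.20 ± 0.10 and 0.27 ± 0.10, neither called.

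Aldoc, the brain-type aldolase, was scarce: 6.86, 9.95, 5.91 and 9.06 CPM in wild type room air and 11.6, 12.6, 13.3 and 9.33 CPM in wild type hypoxia. It read 6.47, 6.05, 6.66 and 7.56 CPM in knockout room air and 10.8, 12.6, 9.83 and 12.0 CPM in knockout hypoxia, groups without overlap. The knockout rise was 0.76 ± 0.16 (adjusted p = 0.00214), and the wild type change 0.54 ± 0.16 was not called (adjusted p = 0.0537), but was by DESeq2 (0.0161) and with wild type room air 2 (0.0254) or hypoxia 4 (0.0177) left out. Without the 4 knockout samples that held genes of other organs, the knockout rise kept its size, 0.81, with an adjusted p of 0.062. Tpi1, triose phosphate isomerase, averaged 76.2 ± 10.7, 94.6 ± 18.5, 70.7 ± 3.77 and 82.3 ± 3.35 CPM (SD, n = 4) in the 4 groups and was not called. Its wild type change of 0.31 ± 0.12 (adjusted p = 0.157) was called without wild type hypoxia 4 (0.42, adjusted p = 0.0213).

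The next steps of the path had very low counts, and their levels are uncertain. Gapdh, often used as a reference gene, stood between 2.52 and 4.69 CPM in the 16 samples, Pgk1 between 3.07 and 5.87 CPM, Pgam1 between 2.15 and 4.77 CPM, and Eno1 between 0.0565 and 0.379 CPM, all far below their neighbours Aldoa and Pkm. Their coding sequence is shared with other genes: of all 50-base words in the coding exons, 94.2% of those of Gapdh, 100% of those of Pgk1 and Pgam1 and 83.4% of those of Eno1 also occur in annotated transcripts elsewhere in the genome, among them processed pseudogenes. By contrast, 23 members had at most 1.2% of such words, and another 7, among them Pkm (42.8%), Ldhb (35.5%), Ldha (28.4%) and Aldoa (16.8%), lay between 13.7% and 43.0%. Over the whole transcript the share was 90.4% for Gapdh, 68.0% for Pgk1, 41.5% for Pgam1 and 72.2% for Eno1. It was 33.2% for Pkm, whose mean level was 87.8 CPM per kilobase, against 1.82 for Pgam1. Reads from shared stretches align to several places and may not have been counted. Alignments that were not unique are given on a line apart from the genes. Per read in genes they ran from 2.34 in wild type hypoxia 2 to 12.4 in wild type room air 3. Which genes they came from is not given, and their part in these levels was not tested. An example from a coding exon of Gapdh, on chr6:125163258-125163317 (minus strand, GRCm38), reads the same in the processed pseudogene Gm7336 on chr7:51746839-51746898 (plus strand), and all of its words occur in 12 other genes. The stretch of Ldha on chr7:46850942-46851001 (plus strand) differs from the pseudogene Gm5452 on chr13:83832816-83832875 (plus strand) at the 3 bases in capitals, and no other transcript holds all of its words.
Gapdh: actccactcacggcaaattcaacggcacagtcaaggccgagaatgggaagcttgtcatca
Gm7336: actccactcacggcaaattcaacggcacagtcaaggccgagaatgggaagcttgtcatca
Ldha: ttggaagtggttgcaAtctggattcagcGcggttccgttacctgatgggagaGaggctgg
Gm5452: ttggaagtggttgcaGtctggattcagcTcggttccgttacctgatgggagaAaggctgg

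**Figure D3:**
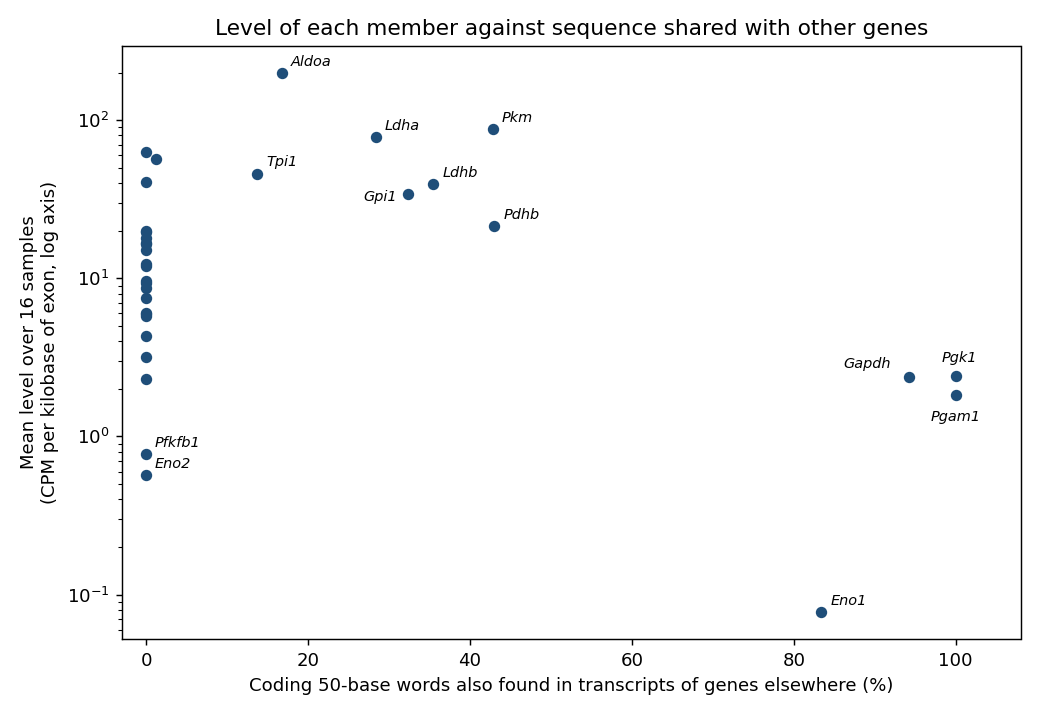
Mean level of each of the 34 members over 16 samples (CPM per kilobase of exon, log axis) against the share of its coding 50-base words that also occur in transcripts of genes elsewhere. The 4 members with 83.4% or more of shared words all lie at or below 2.40 CPM per kilobase.

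None of the 3 tested among these 4 genes was called: the log2 changes under hypoxia were 0.24 ± 0.21 in wild type and 0.29 ± 0.20 in knockout for Gapdh, -0.27 ± 0.19 and -0.02 ± 0.18 for Pgk1, and 0.21 ± 0.23 and -0.05 ± 0.23 for Pgam1. Eno2, the neuronal enolase, lay between 0.710 and 2.34 CPM. Eno3, the muscle enolase, had 86.9 CPM in sample 1 of wild type room air and between 9.71 and 19.8 CPM in the other 15 samples. Its wild type hypoxia change of -1.54 ± 0.47 (adjusted p = 0.0845) was not called; it was -0.53 (adjusted p = 0.0668) without that sample and -1.77 (adjusted p = 0.0356) without wild type room air 3. Eno3 lay between 14.97 and 18.96 CPM in knockout room air and between 9.76 and 12.83 CPM in knockout hypoxia, without overlap. Its knockout change of -0.64 ± 0.47 was not called. At about the same size, it was called with only the compared groups fitted (-0.65, adjusted p = 0.000953) and without wild type room air 1 (adjusted p = 0.00474). The groups share 1 estimate of the spread, so this comparison depends on wild type room air 1, though the sample is in neither of its groups. Each of the 10 skeletal muscle markers was highest in that sample, at 58.9 CPM or more; their part in the Eno3 and Pfkm values was not tested.

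Bpgm makes 2,3-bisphosphoglycerate, which loosens the hold of haemoglobin on oxygen in red cells. It read 146.0, 64.0, 140.9 and 108.5 CPM in wild type room air and 96.0, 139.5, 84.6 and 65.6 CPM in wild type hypoxia. Knockout gave 202.1, 213.3, 132.2 and 111.4 CPM in room air and 126.6, 205.6, 198.0 and 201.5 CPM in hypoxia. Under hypoxia it was 1.90-fold higher in knockout (log2 0.92 ± 0.30, adjusted p = 0.0393), although the lowest knockout sample, at 126.6 CPM, lay under the highest wild type sample. Summed over 10 erythroid markers, the level was 129.8 to 386.3 CPM in wild type room air, 134.8 to 382.4 in wild type hypoxia, 260.9 to 656.7 in knockout room air and 392.5 to 755.9 in knockout hypoxia; 2 of the 5 tested, Slc4a1 and Alas2, were higher in knockout hypoxia than in wild type hypoxia. Hba-a1, Hba-a2 and Hbb-bt were at 0 in all samples. The part of red cell precursors in the Bpgm difference was not tested. This call was lost in 12 of 30 alternatives, among them the removal of wild type room air 4 (adjusted p = 0.0514), wild type hypoxia 1, 3 or 4 (0.0794, 0.0814 and 0.11) and knockout hypoxia 2, 3 or 4 (0.0837, 0.0845 and 0.097).

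**Figure D4:**
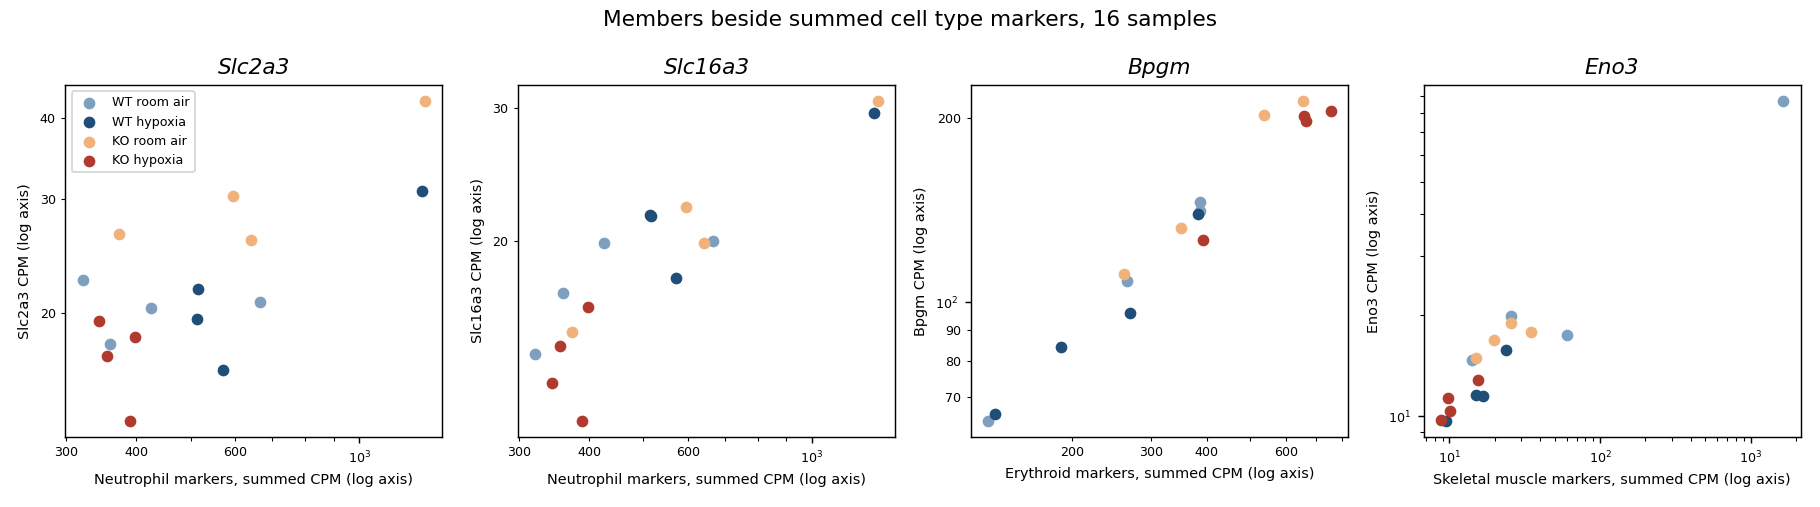
CPM of Slc2a3, Slc16a3, Bpgm and Eno3 in each of the 16 samples against the summed CPM of neutrophil, erythroid or skeletal muscle markers (all axes log). Bpgm is high where erythroid markers are high, Slc2a3 and Slc16a3 are highest in the 2 samples with the most neutrophil markers, and 1 wild type room air sample holds the high Eno3 value.

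Pkm, pyruvate kinase, makes pyruvate and ATP in the last step of glycolysis. It stood at 218.0, 211.4, 176.7 and 209.1 CPM in wild type room air and 233.5, 317.1, 221.9 and 198.2 CPM in wild type hypoxia, with overlap. In knockout room air the values were 190.1, 189.6, 194.4 and 206.7 CPM, and in knockout hypoxia 271.3, 268.6, 268.2 and 277.9 CPM, well apart. It rose in knockout by 0.48 ± 0.11 (adjusted p = 0.00477), and the wild type change was 0.25 ± 0.11 (adjusted p = 0.246), with a difference between them of 0.23 ± 0.15 that was not called (adjusted p = 0.551). Without the 4 knockout samples named above the rise was 0.53 (adjusted p = 0.0914). Under hypoxia the genotypes differed by 0.16 ± 0.11 (adjusted p = 0.295), which was called without wild type hypoxia 2 (0.32, adjusted p = 0.0147) and with the GC trend removed (0.31, adjusted p = 0.0264).

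Lactate dehydrogenase is built of subunits A and B, and Ldha, which favours making lactate, is a textbook target of hypoxia-inducible factors. Ldha read 131.3, 116.7, 129.1 and 130.4 CPM in wild type room air and 186.8, 203.6, 163.7 and 134.9 CPM in wild type hypoxia. Knockout samples gave 118.0, 135.5, 137.9 and 126.6 CPM in room air and 156.1, 162.7, 161.4 and 170.8 CPM in hypoxia. No room air sample reached a hypoxia sample of its genotype, and the gene rose by 0.44 ± 0.10 in wild type (adjusted p = 0.0117) and 0.33 ± 0.10 in knockout (adjusted p = 0.0271). Under hypoxia the genotypes differed by -0.08 ± 0.10 (adjusted p = 0.589). The wild type call was lost without wild type hypoxia 1 (adjusted p = 0.0524), and the knockout call without knockout room air 1 or 4 (0.0935 and 0.0625) or knockout hypoxia 2, 3 or 4 (0.0558, 0.0539 and 0.0766). The wild type call was also lost with only the compared groups fitted (0.0887) and without the 3 samples with the fewest reads in genes (0.0764) or without wild type room air 1 and the 4 knockout samples named above (0.0751), and the knockout call without these 3 (0.0554), without the 4 alone (0.169) or without either pair of them (0.0933 and 0.08), with log2 values of 0.29 to 0.39 for the knockout in all alternatives.

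Ldhb, the subunit that favours turning lactate into pyruvate, fell in knockout. It read 61.3, 50.9, 63.1 and 54.5 CPM in knockout room air and 39.0, 34.2, 32.5 and 38.3 CPM in knockout hypoxia, a decrease of -0.68 ± 0.11 on the log2 scale (adjusted p = 0.000377). In wild type it stood at 62.3, 68.1, 59.8 and 51.9 CPM in room air and 45.1, 49.4, 49.7 and 65.3 CPM in hypoxia, with a change of -0.21 ± 0.11 (adjusted p = 0.39). All knockout hypoxia samples lay below the other 12, and the level was lower than in wild type hypoxia by -0.54 ± 0.11 (adjusted p = 0.00337); both calls held in all 30 alternatives. Heart muscle markers, which include no member, were also lower in knockout hypoxia than in knockout room air without overlap (194.6 to 419.9 against 464.1 to 1108 CPM), and their part in this fall was not tested. The difference between the genotypes' hypoxia effects was -0.47 ± 0.16 (adjusted p = 0.18). Per kilobase of exon, subunit A made up 59.1% ± 3.81 of the pair in wild type room air and 69.0% ± 7.21 in hypoxia, and 60.8% ± 3.21 and 75.7% ± 1.73 in knockout (SD, n = 4), where the samples did not overlap.

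Promoter sequence is shown for the 2 members that rose in both genotypes, Pfkl and Ldha, and for Slc16a3, 1 of the 4 that fell in knockout. The motif searched was ACGTG, the core of the element bound by hypoxia-inducible factors, on both strands in the 250 bases before each RefSeq start (GRCm38.p6). It occurred in 16.6% of 32851 such windows and in at least 1 window of 23.7% of the 11579 tested genes matched by symbol, and in 16 of the 33 members with a window (48.5%), a description that says nothing of binding. Of 2 RefSeq starts of Ldha, the 150 bases before the first, chr7:46845654-46845803 (plus strand), hold it at 3 places and the window of the other holds none; the bases before the Slc16a3 start, chr11:120948917-120949066 (plus strand), hold it at 2, and those of Pfkl, chr10:78009808-78009957 (minus strand), at none. Of the other members that fell in knockout, Ldhb and Pdk1 hold the motif in no window, and Slc2a3 has no window. Among the others that rose in knockout, Pfkfb2 and Pkm hold it in at least 1 window and Aldoc in none. Capitals mark the motif or its reverse complement.
Ldha: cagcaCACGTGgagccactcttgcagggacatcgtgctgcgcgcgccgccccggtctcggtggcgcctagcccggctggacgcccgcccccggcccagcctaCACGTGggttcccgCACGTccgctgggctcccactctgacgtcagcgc
Slc16a3: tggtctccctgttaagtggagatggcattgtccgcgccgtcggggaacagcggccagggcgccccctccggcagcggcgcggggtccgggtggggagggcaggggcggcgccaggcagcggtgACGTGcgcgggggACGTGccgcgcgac
Pfkl: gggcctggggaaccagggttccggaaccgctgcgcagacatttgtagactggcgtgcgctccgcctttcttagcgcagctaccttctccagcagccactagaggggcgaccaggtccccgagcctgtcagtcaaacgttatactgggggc

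Pyruvate dehydrogenase kinases switch off pyruvate dehydrogenase, and Pdk1 is another known target of hypoxia-inducible factors. It lies on chromosome 2 from 71873224 to 71903858 (GRCm38, plus strand). Pdk1 stood at 52.5, 50.2, 49.8 and 55.3 CPM in wild type room air, 59.7, 61.3, 51.6 and 51.0 CPM in wild type hypoxia and 46.9, 45.7, 46.9 and 55.7 CPM in knockout room air. In knockout hypoxia it read 34.4, 39.2, 35.6 and 36.2 CPM, below every sample of the other groups. It was lower there than in wild type hypoxia by -0.62 ± 0.09 (adjusted p = 0.000163), the smallest adjusted p of any member in that comparison, and lower than in knockout room air by -0.42 ± 0.09 (adjusted p = 0.00176), while the wild type change was 0.10 ± 0.09 (adjusted p = 0.619). The difference between the hypoxia effects, -0.53 ± 0.12, was just outside the threshold (adjusted p = 0.0544). It was called by DESeq2 (adjusted p = 0.00448), without wild type hypoxia 4 (-0.58, adjusted p = 0.0333), and under 4 other alternatives, and the fall in knockout was lost without the 4 knockout samples (-0.37, adjusted p = 0.0877).

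Pdk2, the broadly expressed kinase, read 28.1, 26.1, 19.5 and 22.8 CPM in wild type room air and 21.0, 17.5, 20.4 and 29.2 CPM in wild type hypoxia. In knockout it read 20.8, 17.9, 16.4 and 15.6 CPM in room air and 18.7, 15.8, 11.4 and 10.9 CPM in hypoxia. Under hypoxia knockout was lower by -0.63 ± 0.18 (adjusted p = 0.0181), with 1 knockout sample inside the wild type range. The call was lost without wild type hypoxia 4 (-0.46, adjusted p = 0.0729), knockout hypoxia 3 (0.0618) or knockout hypoxia 4 (0.0695). The change of Pdk2 in knockout under hypoxia was not called with all samples. It was called without the 4 knockout samples named above (-0.80, adjusted p = 0.04), also with wild type room air 1 left out (0.0413). The same held without knockout hypoxia 1 and 2 (-0.67, adjusted p = 0.0333). Pdk3 was steady, with group means from 31.1 to 32.7 CPM, and its mean share of the family was the largest in each group per kilobase, but not in reads undivided by length, where Pdk1 led with 40.5%, 44.1%, 40.1% and 34.7% in the group order used above; per kilobase Pdk3 had 36.1% ± 2.91 in wild type at 21% oxygen and 43.7% ± 1.40 in knockout hypoxia (SD, n = 4). Pdk4, known to respond to fasting, lay between 12.5 and 40.8 CPM, highest in knockout room air 4. The target enzyme itself varied little: Pdha1 means lay between 156 and 171 CPM and Pdhb means between 30.3 and 34.2 CPM, with no call in any comparison.

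**Figure D5:**
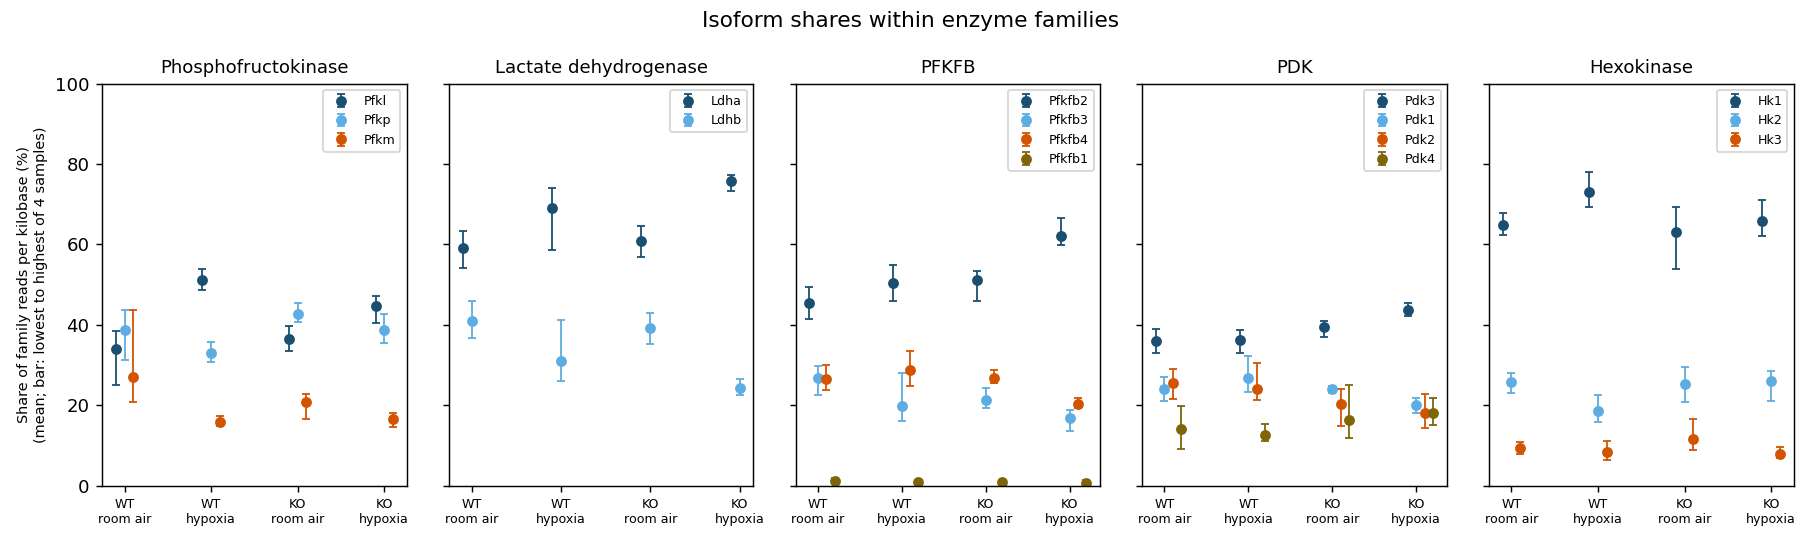
Share of each isoform in the reads per kilobase of its family, for phosphofructokinase, lactate dehydrogenase, PFKFB, PDK and hexokinase; points are means of 4 samples and bars run from the lowest to the highest sample. The Pfkl share is highest in wild type hypoxia, and the Ldha, Pfkfb2 and Pdk3 shares are highest in knockout hypoxia.

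Lactate leaves the cell through monocarboxylate transporters, of which Slc16a3 (MCT4) is the export form known from glycolytic cells and Slc16a1 (MCT1) works in both directions. Slc16a3 read 19.9, 17.1, 20 and 14.2 CPM in wild type room air and 21.6, 29.6, 17.9 and 21.6 CPM in wild type hypoxia. In knockout it stood at 15.2, 22.2, 19.9 and 30.6 CPM in room air and 16.4, 14.5, 12.99 and 11.6 CPM in hypoxia. All 4 wild type hypoxia samples lay above all knockout hypoxia samples, a log2 difference of -0.71 ± 0.19 (adjusted p = 0.0142) that was lost without knockout hypoxia 4 (-0.63, adjusted p = 0.0552). The fall in knockout, -0.66 ± 0.19 (adjusted p = 0.0229), was lost without knockout room air 4 (-0.46, adjusted p = 0.0938) or knockout hypoxia 3 or 4 (0.063 and 0.0817), without the 4 knockout samples named above (0.163), without knockout room air 3 and 4 (0.227), without the 3 samples with the fewest reads in genes (0.0826) and with limma voom (0.0533). The difference between the hypoxia effects was -1.01 ± 0.27 (adjusted p = 0.0914). The highest values were again those of knockout room air 4 and wild type hypoxia 2. Slc16a1 means lay between 51.5 and 57.8 CPM, and it was not called.

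Cell type markers also differed between the groups. Neutrophil markers summed to 342.7 to 397.7 CPM in knockout hypoxia, 512.8 to 1292 CPM in wild type hypoxia and 372.8 to 1311 CPM in knockout room air, and 3 of 10 fell in knockout under hypoxia. All 10 B cell markers and all 10 T and natural killer cell markers fell in knockout under hypoxia, where B cell markers summed to 37.96 to 62.8 CPM against 104.9 to 170.0 CPM in knockout room air, and 4 and 3 of them fell in wild type. Of 8 proliferation markers, 4 rose in knockout and none was called in wild type. Of 10 heart muscle markers, 5 fell in knockout under hypoxia, with the sums given above for Ldhb, and none was called in wild type. The summed macrophage and monocyte markers were higher under hypoxia without overlap in both genotypes, at 1239 to 1503 against 1014 to 1205 CPM in wild type and 1365 to 1741 against 1092 to 1217 CPM in knockout; of the 10, Chil3 rose in both genotypes, and in knockout Mrc1 rose and Csf1r fell. In hypoxia, all 10 B cell and 6 of 10 T and natural killer cell markers were lower in knockout than in wild type. So were Mmp9 and Csf3r (neutrophils) and Csf1r and Ly6c2 (macrophages and monocytes). Of 8 proliferation markers 3 were higher, and no heart muscle marker was called. Pecam1 and Cldn5 were higher and Sftpb and Cdh5 lower, where 12.1% of all genes were lower and 11.0% higher. No marker of the B or T cell lists was at 0 in any sample. The part of these cell types in the lower Slc2a1, Slc2a3, Hk1, Pfkfb4, Ldhb, Pdk1, Pdk2 and Slc16a3 and in the higher Pfkl, Ldha, Pfkfb2, Aldoc and Pkm was not tested.

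Beyond the 34 members, 86 genes were listed for other steps of glucose and pyruvate handling and, 10 of them, for oxygen sensing; 76 were tested. In wild type hypoxia 2 rose and 1 fell, 3.95% of those tested beside 4.98% of all genes, and in knockout hypoxia 4 rose and 10 fell, 18.4% beside 17.0%. Knockout against wild type gave none in room air and 4 higher and 19 lower in hypoxia, 30.3% beside 23.0%. Bsg, the partner protein that carries monocarboxylate transporters to the membrane, rose in both genotypes (0.35 ± 0.08 and 0.58 ± 0.08, adjusted p = 0.0117 and 5.07e-05), with means of 390 and 497 CPM in wild type and 415.5 and 622 CPM in knockout. Gyg, the primer of glycogen synthesis, rose in wild type by 0.52 ± 0.11 (adjusted p = 0.00497).

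Gpd1, which makes glycerol phosphate from a glycolytic triose and is abundant in fat, had a difference between the hypoxia effects that was called. It stood at 33.1, 41.5, 33.2 and 32.7 CPM in knockout room air and 20.1, 16.7, 18.8 and 13.7 CPM in knockout hypoxia, and had means of 34.4 and 33.8 CPM in wild type room air and hypoxia. The difference was -0.99 ± 0.19 (adjusted p = 0.0243). Slc2a6, a transporter known from white blood cells, gave the other such call (-1.79 ± 0.37, adjusted p = 0.0356), with means of 5.49 and 7.63 CPM in wild type and 9.11 and 3.64 CPM in knockout; its highest values, 12.6 and 13.6 CPM, were in wild type hypoxia 2 and knockout room air 4. Of 8 adipocyte markers, 7 were tested and 5 fell in knockout under hypoxia, and their part in the Gpd1 result was not tested.

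Of the other glucose and fructose transporters, Slc2a10 and Slc2a9 were lower in knockout hypoxia than in wild type hypoxia (-0.57 ± 0.12 and -0.50 ± 0.15). Among glycogen genes Gys1, Pygb and Gyg were lower and Pgm1 higher in that comparison, and among 9 pentose phosphate genes Tkt, G6pdx and Pgd were lower and Rpe higher, where 12.1% of all genes were lower and 11.0% higher. Of 10 genes for hypoxia-inducible factors and prolyl hydroxylases, none was called for hypoxia in either genotype. Under hypoxia Hif1a was higher in knockout, at 170 ± 12.8 against 126 ± 11.5 CPM (SD, n = 4), a log2 difference of 0.44 ± 0.08 (adjusted p = 0.00199), and Egln3, a prolyl hydroxylase, was lower (-0.92 ± 0.30, adjusted p = 0.0357).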

How the data were processed

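RNA was measured in 20 libraries of 16 samples. The authors' deposited tables hold raw read counts per gene; per the submitters' processing notes reads passed through Trim Galore, TopHat2 and HTSeq against mm10, while for versions, annotation and strand setting the sources used here give nothing. Libraries A and B of 1 sample number were summed (their log CPM correlated at 0.9886 to 0.9952). The 5 lines that name no gene were left out of library sizes. Counts were scaled by TMM, genes with low counts removed (filterByExpr, minimum 10; 8296 removed, 15766 tested) and all 4 groups fitted together in edgeR 4.0.16 under R 4.3.3 (quasi-likelihood test, two-sided, Benjamini-Hochberg over all genes tested, biological coefficient of variation 15.8%). DESeq2 1.42.0, limma 3.58.1 and the other alternatives are in the closing section. SDs and means are of CPM; levels per kilobase use exon lengths of GENCODE vM21, which matched 98.5% of the genes. Shared 50-base words were counted on its transcripts. A count of 0 allows up to 3 counts, 0.0474 to 0.315 CPM by sample, counting error only. Every member was described, with values by sample where it was called; of other lists, up to 3 called genes with the smallest p per comparison. Members and lists were chosen with earlier results of these data known. A result for 1 other gene of the pathway lists is not reported here.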

Additional observations from a re-analysis of the deposited data

Results flagged for a closer look

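In groups of 4 samples, 11 of 132 member and group combinations held a sample whose gap to the nearest other exceeded Dixon's critical value, where chance gives about 1 in 20. In wild type room air 1, Pfkm stood at 80.1 CPM (others 26.9 to 30.4), Eno3 at 86.88 CPM (14.7 to 19.8) and Aldoa at 453.7 CPM (325.2 to 335.1); this sample held skeletal muscle genes. Knockout room air 4 was high in Pfkfb3 at 113.7 CPM (77.7 to 83.1), Pdk1 at 55.74 CPM (45.7 to 46.9) and Pdk4 at 40.75 CPM (15.8 to 18.2). Knockout hypoxia 1 was low in Bpgm at 126.6 CPM (198.0 to 205.6) and in Slc16a1 at 47.49 CPM (58.7 to 60.1). Single cases were Pfkm at 20.17 CPM in knockout room air 2 (26.4 to 27.4), Ldha at 116.7 CPM in wild type room air 2 (129.1 to 131.3) and Gapdh at 4.427 CPM in knockout hypoxia 2 (3.95 to 4.02).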

How the results depend on the processing

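No member's called direction reversed in the 30 alternatives. The number of members called in wild type hypoxia was 2, and became 1 with only the compared groups fitted, 4 with the GC trend removed, 1 without the 3 samples with fewest reads in genes, and 1 without wild type room air 1 and the 4 knockout samples with genes of other organs. In that order 2.6%, 6.22%, 3.6% and 2.99% of all genes were called, beside 4.98% before. Leaving out single samples gave 1 to 5 members. In knockout hypoxia the 9 calls became 14 with only the compared groups, where the share of all genes called went from 17.0% to 22.4%. The calls became 3 without those 4 samples, with or without wild type room air 1. The share of all genes was then 6.81% with that sample kept and 6.48% with it left out. These 3 calls were Pfkfb2 and Ldhb of the 9, and Pdk2, newly called. Leaving out single samples gave 7 to 11 members. For knockout against wild type in room air, 0 became 2 with DESeq2 and 1 without the 3 samples (single samples 0 to 1). Genes called over all rose from 12 to 1092 with DESeq2, 1856 without the 3 samples, 2198 without wild type room air 3 and 959 with limma voom. The cause was not tested. In hypoxia 10 became 5 without the 3 samples, 4 of the 10 and Pfkfb1 (single samples 5 to 10). The share of all genes called went from 23.0% to 14.9% without the 3 samples. For the difference between effects, 0 became 1 with upper quartile scaling, no filter, the GC trend removed or library A alone, and 3 with DESeq2 (single samples 0 to 1). In that order 0.501%, 0.41%, 1.17%, 0.524% and 3.01% of all genes were called, beside 0.501% before. With upper quartile scaling 44.3% of the genes called for that difference were higher, against 55.7%. Sample numbers were not taken as pairs, since not every same-numbered pair correlated over 0.1. Of 24 such pairs 12 did, with a median of 0.107, from -0.327 to 0.46, against a median of -0.049 for other numbers. That rule cannot tell whether the numbers mark a batch, because a batch shared by only some pairs would also fail it. With the replicate block the calls were 2, 9, 0, 9 and 0, and Bpgm was lost. Genes called over all went from 785, 2685, 12, 3633 and 79 without the block to 823, 2714, 238, 3819 and 157 with it. The 4 are those with the most thymocyte or pancreas markers in these same data. The other sets of samples left out were also chosen after seeing the data. Shares of isoforms without division by length kept their order of room air and hypoxia for Pfkl and Ldha, but put Pdk1 before Pdk3 in each group. Depth limits Eno1, Eno2 and Pfkfb1 most.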
